A study of Mus musculus with 12 samples.

Results

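Moxd1, monooxygenase DBH-like 1 (ENSMUSG00000020000.7), is 1 gene of the 52636 counted in the files and of the 12453 with enough reads to be tested. It was chosen from the counts themselves, because it was high in only the mice VDS_1 and VDS_2. Its level by diet and by set of mice is therefore a description of the pattern that selected it, and no test was made on it. Liver RNA came from 12 male C57Bl/6J mice of 16 weeks of age, with 1 library per mouse, sequenced after ribosomal RNA depletion. In 6 of them (VDD-F1) the dams had eaten a vitamin D deficient diet, supplemented with calcium gluconate, from before mating to delivery. In the other 6 (VDS-F1) the dams had eaten a vitamin D sufficient diet, and all dams and offspring ate the sufficient diet after delivery. The diet was thus given to the mothers and not to the mice measured. Litters are not named in the labels used here, so mice of 1 diet may have shared a mother. Liver weights are on record for 7 of the mice (VDD_4 to VDD_6 and VDS_3 to VDS_6) and not for the other 5 (VDD_1 to VDD_3, VDS_1 and VDS_2), and these are called the recorded and the unrecorded mice below. What else separated the 2 sets is not given in the sources used here.

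The protein family to which Moxd1 belongs holds the copper-dependent monooxygenases, enzymes that use copper and ascorbate to add oxygen to their substrates. Dopamine beta-hydroxylase (Dbh) makes noradrenaline from dopamine in neurons and the adrenal medulla, and peptidylglycine alpha-amidating monooxygenase (Pam) amidates the ends of neuropeptides and hormones. MOXD1 is named for its likeness to DBH, sits in the endoplasmic reticulum, and has no settled substrate. It is not among the genes by which hepatocytes are usually recognised.

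The gene lies on the forward strand of chromosome 10 (chr10:24223517-24302790, GRCm38) and spans 79274 bases. Its coding transcript has 12 exons, 3090 exonic bases and 613 codons. No other annotated gene overlaps it, and none of the 3168 runs of 31 bases in its transcripts occurs in a transcript of another gene. Its reads can therefore be told from those of other genes. Its forward-strand count was 3 in VDS_1, 2 in VDS_2, 1 in VDD_1 and 0 in the other 9 libraries, so nearly all of its reads lay on the strand of the gene.

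Because mice differed in Moxd1 over a wide range, the sequence before its start was read from the RefSeq promoter table (GRCm38.p6) and searched for 5 motifs on both strands. They were TTCNNNGAA (the letters read by Stat5 and Bcl6), CACGTG (an E-box), TTATGTAA (a D-box), AGGTCA (a nuclear receptor half-site) and TGTTTAC (a Fox type site). The window of 300 bases around the start held 1 match, to TTCNNNGAA, which is also found in 8.30% of the 32851 promoter windows of the table. CACGTG was found in 7.15%, TTATGTAA in 0.938%, AGGTCA in 16.3% and TGTTTAC in 3.65% of all windows. Guanine and cytosine made up 61.7% of the Moxd1 window, where the median of all windows was 52.7%. Among the genes described further on, 8 of the 15 that followed Moxd1 most closely and 8 of the 10 that ran most against it have a window in the table. TTCNNNGAA was found in 1 of the former, Ttbk1, and in 3 of the latter, Gm3776, Hamp and Zfp772. Cyp2d40 held AGGTCA and Metap1d held CACGTG. The 250 bases before the start are shown for Moxd1 (chr10:24223267-24223516, forward strand), for Ttbk1 (chr17:46487676-46487925, reverse strand) and for Hamp (chr7:30944030-30944279, reverse strand), as the gene itself, a gene that followed it and a gene that ran against it. Capitals mark the match to TTCNNNGAA, which starts at base 101 in Moxd1, at base 28 in Ttbk1 and at base 154 in Hamp. A match to these letters is not a measured binding site.
Moxd1: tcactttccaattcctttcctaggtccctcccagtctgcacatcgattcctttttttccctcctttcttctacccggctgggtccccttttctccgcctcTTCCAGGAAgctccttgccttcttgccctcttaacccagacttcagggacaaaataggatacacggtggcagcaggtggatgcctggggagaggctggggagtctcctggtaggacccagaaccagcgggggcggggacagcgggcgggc
Ttbk1: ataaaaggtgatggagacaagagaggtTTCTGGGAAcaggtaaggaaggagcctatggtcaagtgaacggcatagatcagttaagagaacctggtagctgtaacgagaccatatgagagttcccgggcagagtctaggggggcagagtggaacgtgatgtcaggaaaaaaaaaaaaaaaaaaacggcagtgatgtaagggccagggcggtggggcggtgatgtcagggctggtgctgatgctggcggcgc
Hamp: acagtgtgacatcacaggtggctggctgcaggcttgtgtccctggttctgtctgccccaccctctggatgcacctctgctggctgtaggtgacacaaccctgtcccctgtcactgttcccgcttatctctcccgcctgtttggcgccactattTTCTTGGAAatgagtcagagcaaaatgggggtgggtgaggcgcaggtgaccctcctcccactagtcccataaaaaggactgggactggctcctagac

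The libraries held between 14275793 and 20815066 reverse-strand counts in genes, of 25897868 to 36403413 sequenced fragments. VDS_1 and VDS_2 stood within the range of the other 10 mice in the share of unmapped fragments (30.9% and 29.2% against 23.5% to 37.9%). VDS_1 had the largest count in genes and the lowest share of fragments outside genes (2.52%), and VDS_2 lay within the 2.77% to 11.1% of the other 10, the highest of which was VDS_6. On the first principal component of the 500 most variable genes (46.6% of their variance), VDD_2, VDD_4, VDD_5 and VDD_6 stood apart at 13.8 to 23.1, and the other 8 mice lay between -9.86 and -6.86. On the second (19.65%) the sets did not overlap, with the 5 unrecorded mice at 4.24 to 12.2, VDS_2 the highest, and the 7 recorded mice at -9.11 to -2.95. The samples carried liver markers. The summed level of 10 hepatocyte genes was 97861 to 127000 counts per 1000000 counts (CPM) in the other 10 mice, and 116000 and 110380 CPM in VDS_1 and VDS_2. Xist, the RNA of the inactive X chromosome, was at 0 in 9 libraries and reached 24 counts in VDS_6, while 4 Y-linked genes were present in all 12.

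Among the VDS-F1 mice, Moxd1 had 1840 counts in VDS_1, 1345 in VDS_2, 18 in VDS_3, 32 in VDS_4, 19 in VDS_5 and 16 in VDS_6. In VDD-F1 it had 70 counts in VDD_1, 1 in VDD_2, 23 in VDD_3, 0 in VDD_4, 0 in VDD_5 and 1 in VDD_6. VDS_1 and VDS_2 together held 94.7% of all Moxd1 counts in the 12 livers. Scaled to library size by TMM, its level was 90.8 CPM (95% Poisson interval 86.7 to 95.1) in VDS_1 and 79.4 CPM (75.2 to 83.7) in VDS_2. It was 1.24, 1.66, 1.32 and 1.14 CPM in VDS_3 to VDS_6, which lay within each other's counting intervals. In VDD-F1 it was 4.42 CPM (3.44 to 5.58) in VDD_1, 1.73 CPM (1.10 to 2.60) in VDD_3, 0.0522 CPM in VDD_2, 0.0466 CPM in VDD_6 and 0 in VDD_4 and VDD_5. A level of 3 counts would be 0.206 CPM in VDD_4 and 0.158 CPM in VDD_5, and the 95% Poisson intervals of their 0 counts end at 0.253 and 0.194 CPM. These intervals cover counting error only, and do not include the spread between mice.

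**Figure D1:**
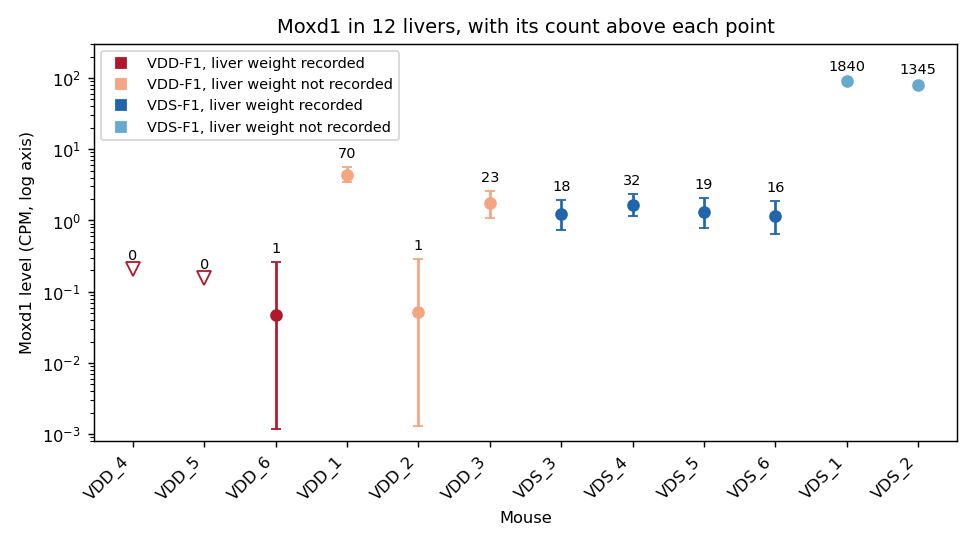
Moxd1 level in CPM (log axis) in each of 12 livers, coloured by the diet of the mother and by whether the liver weight is on record. Points are levels with 95% Poisson intervals, open triangles are the levels of 3 counts in the mice with no count, and the number above each point is its count. VDS_1 and VDS_2 sit near 90.8 and 79.4 CPM, 6 mice sit between 1.14 and 4.42 CPM, and 4 VDD-F1 mice have 0 or 1 count.

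The 12 mice therefore fell into 3 levels, with a gap of 17.96-fold between VDS_2 and VDD_1 and one of 21.9-fold between VDS_6 and VDD_2. The second rests on 1 count in VDD_2, and its 95% counting interval ran from 3.41-fold to 920-fold, against 14.1-fold to 23.2-fold for the first. VDS_1 was 1.14-fold above VDS_2, and their counting intervals did not overlap. VDD_1 was 2.55-fold above VDD_3, again without overlap. The middle level from VDD_3 through VDS_4, VDS_5 and VDS_3 to VDS_6 was an unbroken run in which each neighbour overlapped the next. The 4 lowest mice, VDD_2, VDD_6, VDD_4 and VDD_5, also overlapped, and they are the mice that stood apart on the first principal component. Per kilobase of exon, Moxd1 was at 28.4 CPM in VDS_1 and 24.8 CPM in VDS_2, which ranked it 1213 and 1400 of 12447 genes by this measure. In VDD_1 it ranked 8580, and in the other 9 mice 10408 or lower.

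By diet, the mean level was 1.04 ± 1.79 CPM (SD, n = 6) in VDD-F1 and 29.3 ± 43.4 CPM (SD, n = 6) in VDS-F1. The medians were 0.0494 CPM and 1.49 CPM. The groups overlapped, since VDD_1 and VDD_3 stood above all 4 recorded VDS-F1 mice. The ratio of the means, 28.1, was 16.3 without VDS_1, 18.5 without VDS_2 and 1.29 without both, and it was 79.9 without VDD_1. By set, the mean was 35.3 ± 45.7 CPM (SD, n = 5) in the unrecorded and 0.773 ± 0.727 CPM (SD, n = 7) in the recorded mice. These groups overlapped as well, because VDD_2, an unrecorded mouse, had 1 count.

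Split by both, the order of the levels was unrecorded VDS-F1 at 85.1 ± 8.11 CPM (SD, n = 2), unrecorded VDD-F1 at 2.07 ± 2.20 CPM (SD, n = 3), recorded VDS-F1 at 1.34 ± 0.227 CPM (SD, n = 4) and recorded VDD-F1 at 0.0155 ± 0.0269 CPM (SD, n = 3). The highest and the lowest group each lay outside the range of every other group except that VDD_2 shared the level of recorded VDD-F1. The middle pair did not differ beyond their spread, since the 3 unrecorded VDD-F1 mice ran from 0.0522 to 4.42 CPM across the recorded VDS-F1 range of 1.14 to 1.66 CPM. Within VDS-F1 the pooled counts of the unrecorded mice were 62.6 times (counting interval 50.5 to 78.6) those of the recorded mice, per effective library size. VDS-F1 stood above VDD-F1 by 44.0-fold (35.8 to 54.6) in the unrecorded and by 75.3-fold (13.1 to 3007) in the recorded mice, where the VDD-F1 side rests on 1 count. VDD_1 held 70 of the 94 counts of the unrecorded VDD-F1 mice, and the 44.0-fold became 116-fold without it and 26.8-fold without VDD_2. In both sets every VDS-F1 mouse was above every VDD-F1 mouse. With 2 mice in the highest group, their shared level and their set cannot be told apart from anything else that VDS_1 and VDS_2 had in common.

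Of the 12453 genes tested, no other set VDS_1 and VDS_2 apart to the same degree. Moxd1 was chosen for being high in only these mice, so its place at the top is largely built in. Measured as the lower of the 2 mice over the highest of the other 10, the gap was 17.96-fold for Moxd1 and at least 2-fold for 3 further genes of those tested. They were Saa1 (4.36-fold), Saa2 (3.17-fold) and Ptk6 (2.18-fold), followed by Gm48878 (1.90-fold) and Ttbk1 (1.88-fold). Ptk6 and Gm48878 had a mean of 10.4 and 10.6 counts in the other 10 mice and passed the minimum of 12 only through VDS_1 and VDS_2, so the filter itself favoured their gap. Saa1 and Saa2, which encode the acute-phase apolipoproteins serum amyloid A, are named here after their values were seen. They belong to 1 family and lie close together (chr7:46740497-46742980 and chr7:46751790-46754313), so they may not be separate cases. Whether their reads can be told apart was not tested. Saa1 was at 225 CPM in VDS_1 and 279 CPM in VDS_2, at 20.8 to 51.8 CPM in VDD-F1 and at 12.2 to 17.5 CPM in the recorded VDS-F1 mice. Saa2 was at 101 and 161 CPM, at 15.2 to 32.0 CPM and at 6.19 to 10.7 CPM in the same groups. Saa3, another member of the family, was at 2.27 and 3.25 CPM in VDS_1 and VDS_2 and at 0.904 to 3.07 CPM in the other 10. Across the other 10 mice Saa1 did not run with Moxd1 (r = -0.08), and over all 12 its r of 0.75 was the 208th highest.

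**Figure D2:**
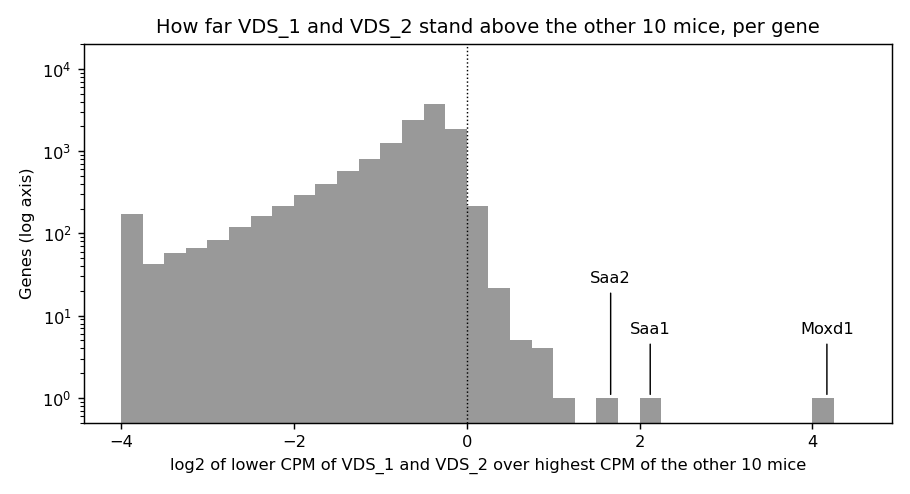
For each gene tested, the log2 ratio of the lower level of VDS_1 and VDS_2 to the highest level among the other 10 mice, as a histogram (log axis, genes per bar). The leftmost bar also holds all genes below its range, and genes right of the dotted line at 0 have both mice above all others. Moxd1, which was chosen for being high in these mice, is at a ratio of 17.96, with Saa1 at 4.36 next.

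Markers of other cells were summed to see what else these 2 livers held. The adrenal markers Th, Dbh, Chga, Cyp11a1 and Cyp11b1 had no count in any library, and the adrenal list summed to 0 and 1.36 CPM in VDS_1 and VDS_2 against 0.550 to 1.65 CPM. Kidney markers were at 0 in both mice, and those of exocrine pancreas were at 0.247 and 0.177 CPM against 0 to 0.694 CPM in the other 10. Stellate cell markers summed to 498 and 380 CPM (321 to 966 in the other 10), endothelial markers to 294 and 345 CPM (292 to 411) and cholangiocyte markers to 51.5 and 31.4 CPM (23.9 to 116). Kupffer cell and macrophage markers summed to 176 and 333 CPM (131 to 334), lymphocyte markers to 3.95 and 5.66 CPM (1.58 to 11.6) and mesothelial markers to 9.38 and 3.84 CPM (1.17 to 14.9). In each of these last 6 sums VDS_1 and VDS_2 lay within the range of the other mice, but single members could lie outside. VDS_2 was the highest mouse in Clec4f (76.3 CPM), Vsig4 (25.4 CPM) and Timd4 (9.44 CPM), with VDS_1 at 45.1, 15.8 and 2.86 CPM. The other Kupffer cell and macrophage markers peaked in neither mouse. In bulk RNA, more cells that express Moxd1 and more Moxd1 RNA per cell cannot be told apart.

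The 15 genes whose levels followed Moxd1 most closely were found by Pearson r over the 12 mice on log2 CPM with a prior count of 2, among 12452 genes. The r is a description without a test, because mice share a diet and a set, both genes of a pair come from 1 library per mouse, and VDS_1 and VDS_2 hold much of the spread. It was 0.9 or more for 8 genes and 0.8 or more for 89, and -0.9 or less for 5 and -0.8 or less for 89. The 15 genes lay on 10 chromosomes and 14 are protein coding. In 12 of the 15, VDS_1 and VDS_2 were the 2 highest mice, against 247 of the 12452 genes (1.98%). This follows largely from choosing the 15 by r with a gene that is high in those mice. The change was much smaller than that of Moxd1: unrecorded VDS-F1 mice stood 1.28-fold to 4.42-fold (median 1.67-fold) above recorded VDS-F1 mice, against 63.4-fold for Moxd1.

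Cyp2d40, a cytochrome P450 of the 2d family, had the highest r (0.93). It was at 73.2 CPM in VDS_1, 82.2 CPM in VDS_2 and 36.2 to 51.4 CPM in the recorded VDS-F1 mice, and at 63.3, 22.5 and 48.7 CPM in VDD_1 to VDD_3 and 19.8 to 26.0 CPM in the recorded VDD-F1 mice. It thus had the lower gap of Moxd1, with the 4 lowest mice below the recorded VDS-F1 mice, while VDD_1 lay closer to VDS_1 than to the recorded VDS-F1 mice. Mup21, a major urinary protein secreted by male hepatocytes (r = 0.89), ranged from 45.1 CPM in VDD_2 and 91.0 to 99.9 CPM in recorded VDD-F1, through 212 to 312 CPM in recorded VDS-F1 and 307 and 329 CPM in VDD_1 and VDD_3, to 793 and 483 CPM in VDS_1 and VDS_2. Akr1c20 (r = 0.89), an aldo-keto reductase, moved over a narrower range of 33.6 to 62.2 CPM. Because Cyp2d40, Mup21 and Akr1c20 belong to families with near-identical copies, their counts are less certain than that of Moxd1.

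Lrg1, C1s1, C4b, Serpina3m and Wfdc21 encode secreted proteins. Lrg1, a leucine-rich glycoprotein made by liver in inflammation (r = 0.92), was at 795 and 821 CPM in VDS_1 and VDS_2, 305 to 385 CPM in recorded VDS-F1, 616, 327 and 441 CPM in VDD_1 to VDD_3 and 164 to 259 CPM in recorded VDD-F1. C1s1, the C1s protease of the classical complement pathway (r = 0.92), ran from 296 CPM in VDD_5 to 490 CPM in VDS_1. C4b, the complement component that C1s cleaves (r = 0.90), was at 2569 and 2562 CPM in VDS_1 and VDS_2, 2481 CPM in VDD_1 and 1324 to 2051 CPM in the others, and C4a is a close copy of it. Serpina3m, a protease inhibitor of a large family of copies (r = 0.89), was highest in VDS_2 (339 CPM) and VDD_3 (319 CPM). Wfdc21, a small secreted protein induced by bacterial lipopolysaccharide (r = 0.92), was at 163 and 195 CPM in VDS_1 and VDS_2 and at 67.4 to 150 CPM in the others. In each of these 5 genes VDD_1 or VDD_3 was the highest of the other 10 mice, as VDD_1 was for Moxd1.

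The other followers have varied roles. Ttbk1, a tau and tubulin kinase best known from neurons (r = 0.91), came nearest to Moxd1 in the size of its change, at 15.1 and 7.49 CPM in VDS_1 and VDS_2, 1.51 to 3.36 CPM in recorded VDS-F1, 3.98, 0.470 and 3.39 CPM in VDD_1 to VDD_3 and 0.0687 to 0.210 CPM in recorded VDD-F1. Ptk6, a cytoplasmic tyrosine kinase of epithelia (r = 0.91), was at 2.81 and 3.13 CPM in the 2 mice and at 0.140 to 1.29 CPM in the other 10. Gm48878 (r = 0.91), an unconfirmed transcript on chromosome 10, the chromosome of Moxd1 (chr10:122454132-122456809), was at 2.91 and 2.01 CPM against 0.313 to 1.05 CPM. Parp9, an interferon-induced partner of ADP-ribosylation (r = 0.90), ran from 38.0 to 60.8 CPM. Trim7, a ubiquitin ligase (r = 0.89), ran from 4.38 to 15.8 CPM, Fign, a microtubule-severing ATPase (r = 0.88), from 6.66 to 17.2 CPM, and Metap1d, a mitochondrial methionine aminopeptidase (r = 0.88), from 6.63 to 15.5 CPM. Values of Ptk6, Gm48878 and the lowest Ttbk1 mice rest on few counts. Since Ptk6 and Gm48878 passed the filter only through VDS_1 and VDS_2, a high r with Moxd1 was partly built into them, and they are 2 of the 63 correlated genes with a mean under 12 in the other 10 mice.

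**Figure D3:**
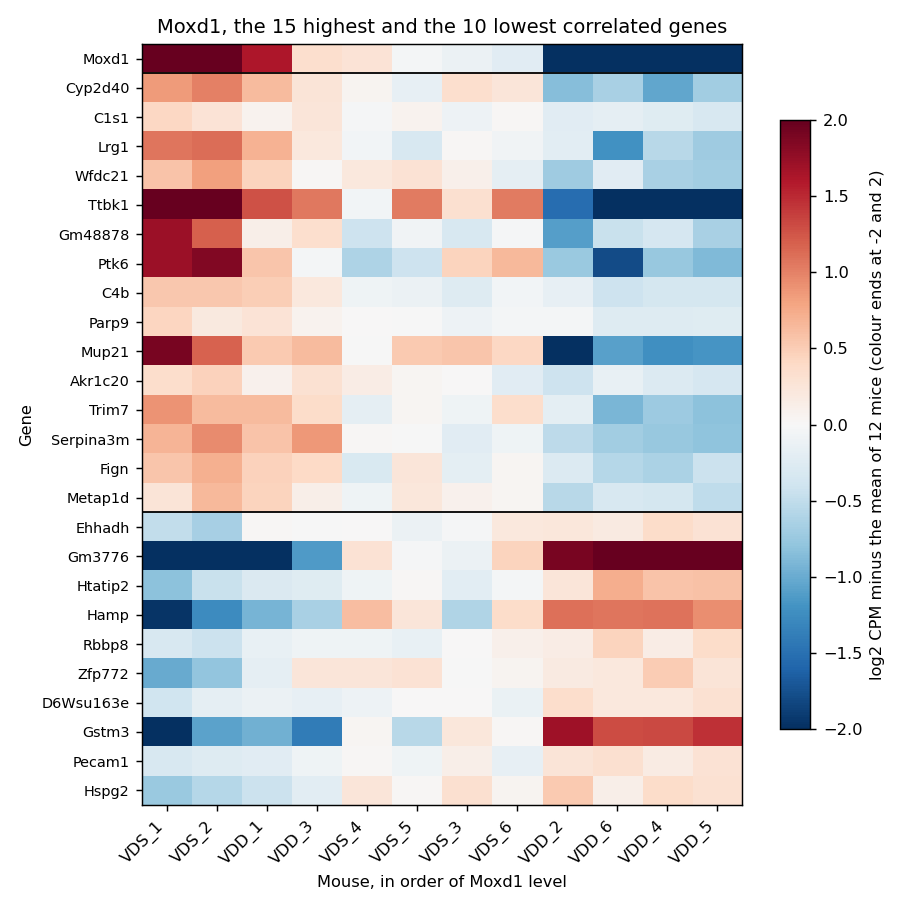
Colour shows log2 CPM minus the mean of 12 mice for Moxd1 (top), the 15 genes with the highest r (r of 0.88 to 0.93) and the 10 with the lowest (r of -0.94 to -0.89), with mice ordered by their Moxd1 level. Colours end at -2 and 2, which Moxd1 exceeds in VDS_1, VDS_2 and the 4 lowest mice. VDS_1 and VDS_2 are the 2 highest mice in 12 of the 15 genes, against 1.98% of all genes.

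Of the 10 genes that ran most against Moxd1, VDS_1 and VDS_2 were the 2 lowest mice in 8, against 209 of the 12452 genes. This likewise follows largely from how the 10 were chosen. Ehhadh, the bifunctional enzyme of peroxisomal fatty acid oxidation, had the lowest r (-0.94). It was at 188 and 166 CPM in VDS_1 and VDS_2, 244 to 308 CPM in recorded VDS-F1, 264 to 308 CPM in unrecorded VDD-F1 and 299.8 to 343 CPM in recorded VDD-F1. Hamp, which encodes the iron-regulating hormone hepcidin (r = -0.92), was at 63.5 and 104 CPM in VDS_1 and VDS_2, 163 to 378 CPM in recorded VDS-F1 and 473 to 524 CPM in recorded VDD-F1. VDD_1 (130 CPM) and VDD_3 (158 CPM) lay just above the 2 mice in Hamp, and VDD_2 (530 CPM) lay with the recorded VDD-F1 mice. Gstm3, a glutathione S-transferase (r = -0.89), was lowest in VDS_1 and VDD_3, with 17.7 and 35.9 CPM in VDS_1 and VDS_2, 38.8 and 28.7 CPM in VDD_1 and VDD_3, 51.5 to 88.9 CPM in recorded VDS-F1 and 187 to 247 CPM in the 4 lowest mice for Moxd1.

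Gm3776 (r = -0.94) had no count in VDS_1, VDS_2 or VDD_1, was at 0.452 CPM in VDD_3 and 1.03 to 1.57 CPM in recorded VDS-F1, and reached 8.36 to 10.5 CPM in recorded VDD-F1. Htatip2, a short-chain reductase (r = -0.92), ran from 9.82 CPM in VDS_1 to 28.9 CPM in VDD_6. Pecam1, an adhesion protein of endothelium (r = -0.89), was at 16.5 and 17.3 CPM in the 2 mice and at 17.7 to 25.9 CPM in the others, and Hspg2, the basement membrane proteoglycan perlecan (r = -0.89), was at 55.3 and 62.1 CPM against 68.1 to 132 CPM. The whole endothelial list, of 8 markers, was at 294 and 345 CPM against 292 to 411 CPM, and its part in the Pecam1 value was not tested. The others were Rbbp8 (r = -0.91), a factor in the repair of DNA breaks, at 3.48 to 6.48 CPM, Zfp772 (r = -0.90), a zinc finger protein, at 0.691 to 2.20 CPM, and D6Wsu163e (r = -0.89) at 4.79 to 8.14 CPM.

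**Figure D4:**
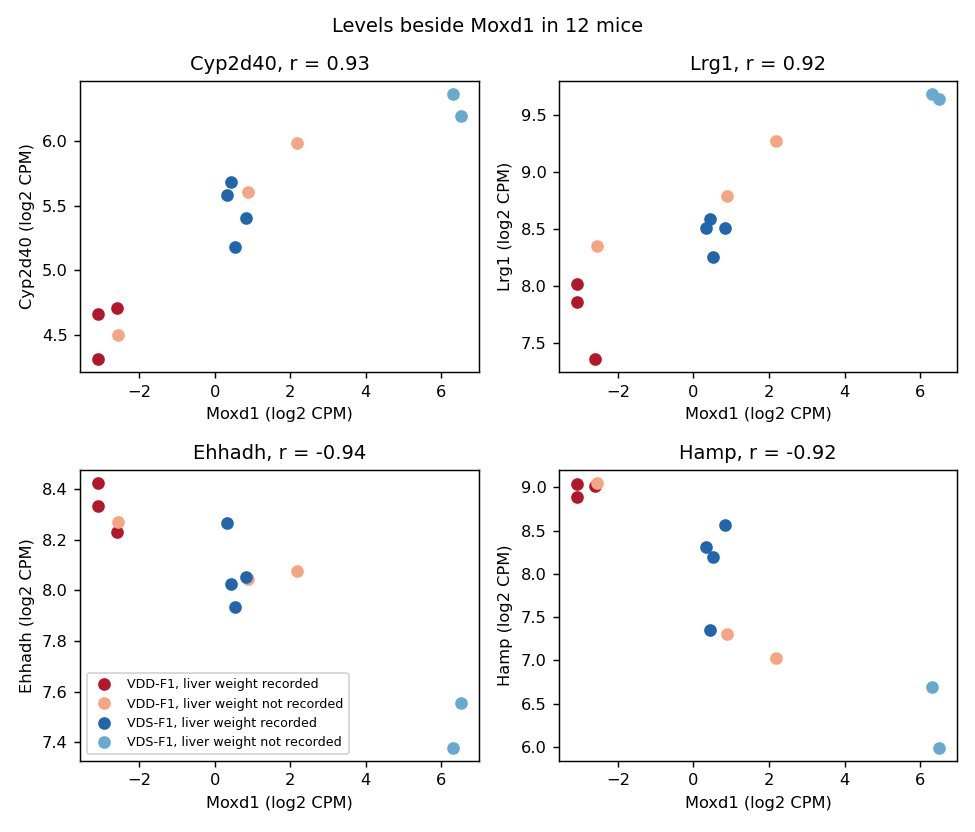
Log2 CPM of Cyp2d40, Lrg1, Ehhadh and Hamp against that of Moxd1, 1 point per mouse, coloured by diet and by whether the liver weight is on record. The r over 12 mice is 0.93, 0.92, -0.94 and -0.92. VDS_1 and VDS_2 are at the right of each panel, and VDD_2 sits with the 3 recorded VDD-F1 mice at the left.

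Without VDS_1 and VDS_2, the relation was carried by the gap between the 4 lowest mice and the middle 6. In these 10 mice the 15 followers had an r of 0.71 to 0.95 (median 0.86) and the 10 opposed genes one of -0.94 to -0.62. They were picked over 12 mice that include these 10, so such values are largely built in, and 797 of the 12452 genes had an r at least as high as the lowest of the 15. Of the 15, 4 were among the 100 highest of the 10 mice. The order of genes changed, and Cyp2d40 was the 1 gene of the 15 that was also among the 15 highest of the 10 mice. That list was led by Pex11a (r = 0.97), a peroxisome division factor, which had an r of 0.13 over all 12 mice. In it VDS_1 (31.5 CPM) lay within the range of the 4 lowest mice (30.9 to 34.6 CPM) and VDS_2 (35.7 CPM) just above it. Nxpe2 (r = 0.96) and Glul (r = 0.96), the glutamine synthetase of pericentral hepatocytes, were next. Glul was at 1309 and 1569 CPM in VDD_1 and VDD_3, 918 to 1014 CPM in recorded VDS-F1 and 261 to 392 CPM in the 4 lowest mice, with 1477 and 1321 CPM in VDS_1 and VDS_2. The lowest r belonged to Itgb8 (r = -0.97), an integrin subunit, at 3.57 CPM or more in each of the 4 lowest mice and 0.568 to 0.962 CPM in the other 6, and at 2.47 CPM in VDS_1. In deviations from the mean of each of the 4 diet-by-set groups the 15 followers had an r of 0.43 to 0.91 (median 0.80). Those deviations rest mainly on VDD_1, VDD_2 and VDD_3, whose SD in Moxd1 was 2.45 on the log2 scale against 0.14 to 0.28 in the other 3 groups.

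Of the other copper-dependent monooxygenases, Dbh and Moxd2 had no count in any library, where a level of 3 counts would be 0.140 to 0.226 CPM. Pam was present in all 12, at 43.1 and 33.4 CPM in VDS_1 and VDS_2, 24.8 to 34.7 CPM in recorded VDS-F1, 29.4, 63.5 and 38.7 CPM in VDD_1 to VDD_3 and 42.4 to 49.8 CPM in recorded VDD-F1. Its r with Moxd1 was -0.39. The diet difference of Pam (VDD-F1 minus VDS-F1) was a log2-fold change of 0.50 ± 0.17 (SE, adjusted p-value 0.18, edgeR) in 12 mice, and of 0.70 ± 0.13 (SE, adjusted p-value 0.0051, edgeR) in the recorded mice, below the fold set for a call. Per kilobase of exon its mean level was 3.23 CPM, so that Moxd1 was above Pam by this measure in VDS_1 and VDS_2 and below it in the other 10 mice.

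Of 17 genes of copper uptake, transport and storage 16 were tested, and their median r with Moxd1 was 0.01, near that of all genes (-0.00047). In the set comparison (unrecorded minus recorded, with diet as a term) 0 of 16 were called higher, against 0.61% of all genes, and 0 were called lower, against 0.281%. DESeq2 called 1 of the 16, Mt1, as higher (log2-fold change 1.42), of the 165 genes it called by set. At an unadjusted p-value under 0.05 there were 6 of the 16, against 995 higher and 731 lower of the 12453 genes. Genes were called by the edgeR quasi-likelihood test at an adjusted p-value below 0.05 with a change of more than 1 on the log2 scale. Mt1, a metallothionein that binds copper and zinc, was at 12.9 and 27.9 CPM in VDS_1 and VDS_2, 5.84 to 12.5 CPM in recorded VDS-F1 and 20.4 to 157 CPM in VDD-F1 (r = -0.22). By diet 0 of 16 were called in 12 mice (3 at an unadjusted p-value under 0.05, and Mt1 by DESeq2). At that p-value were 1189 genes higher and 783 lower of 12453, and DESeq2 called 253. Mt1 was the 1 member called higher by diet in the recorded mice (log2-fold change 1.19 ± 0.21 SE, adjusted p-value 0.0039), where 3.07% of 12369 genes were called higher and 1.26% lower.

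Neighbours of Moxd1 on chromosome 10 had no r of the size seen in the followers. Within 500 kb lie 33 annotated genes, of which 7 passed the filter on low counts, and the trace amine receptors between Vnn1 and Stx7 are among the 26 that did not. The r with Moxd1 was 0.58 for Vnn3 and 0.40 for Vnn1, pantetheinases, 0.17 for Stx7, a syntaxin and the nearest tested neighbour, 0.01 for Ccn2, a matricellular growth factor, 0.21 for Enpp1, a pyrophosphatase, -0.13 for Slc18b1 and -0.19 for Rps12, a ribosomal protein. Stx7, whose end lies 33.3 kb before the start of Moxd1, was at 22.0 and 18.3 CPM in VDS_1 and VDS_2 and at 12.2 to 20.3 CPM in the other 10. By edgeR 0 of the 7 were called by diet, by set or by their interaction, and 5 had an unadjusted p-value under 0.05 for set or interaction, as did 2614 of the 12453 genes tested. DESeq2 called Vnn1 and Ccn2 for the interaction, of the 97 genes it called. In the other 10 mice alone, Vnn1 ran with Moxd1 (r = 0.84) and Ccn2 against it (r = -0.71).

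Genes that differ between male and female livers include Mup21, one of the followers. Of the 22 genes higher in male mouse liver, all tested, the median r was 0.35. Mup7 (r = 0.81) was at 1605 and 1126 CPM in VDS_1 and VDS_2, 652 to 1072 CPM in recorded VDS-F1, 505, 6.63 and 242 CPM in VDD_1 to VDD_3 and 16.1 to 24.4 CPM in recorded VDD-F1. Susd4, a complement regulator (r = 0.79, and 0.94 in the other 10 mice), was at 42.7 and 41.3 CPM in VDS_1 and VDS_2, 27.5 to 39.0 CPM in recorded VDS-F1, 30.6 and 22.6 CPM in VDD_1 and VDD_3 and 0.894 to 1.99 CPM in the 4 lowest mice. Both thus shared the lower gap of Moxd1 and not its upper one. In the recorded mice 7 of 22 fell with VDD (Cyp7b1, Hsd3b5, Susd4, Cyp2d9, Mup1, Mup7 and Mup21, the last of which its r had already picked) and 0 rose, against 1.26% of all genes lower and 3.07% higher, with Susd4 at a log2-fold change of -4.76 ± 0.24 (SE, adjusted p-value 6.7e-07, edgeR). In all 12 mice 1 of 22 fell (Mup1, -3.32 ± 0.49 SE, adjusted p-value 0.027, a call lost without any 1 of the recorded mice), where 0.0241% of all genes were called lower and 0.0161% higher. By set 1 fell, Cspg5 (-1.64 ± 0.40 SE, adjusted p-value 0.046, edgeR), a call that remained without VDD_2 or VDS_1 and was lost without any other mouse or without diet as a covariate. DESeq2 called Mup1, Mup7 and Cyp7b1 by diet, where it called 253 of the 12453 genes tested. By set it called Cspg5, Susd4, Selenbp2 and Mup21, of 165 genes.

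Of 26 genes higher in female liver 13 had enough counts, with a median r of -0.29. Cyp2a4, a steroid hydroxylase of female liver, mirrored the lower gap (r = -0.79, and -0.94 in the other 10 mice). It was at 40.4, 36.2, 26.6 and 25.2 CPM in VDD_2, VDD_4, VDD_5 and VDD_6, and at 0 to 0.416 CPM in the other 8. Its diet difference was a log2-fold change of 7.18 ± 1.30 in all mice (SE, adjusted p-value 0.063, edgeR, but called by DESeq2 at an adjusted p-value of 0.00034) and 7.09 ± 0.34 in the recorded mice (SE, adjusted p-value 4.3e-07, edgeR). Cyp2b10, a P450 induced by xenobiotics (r = -0.86), was at 0 and 0.118 CPM in VDS_1 and VDS_2, 0.0753 to 1.77 CPM in unrecorded VDD-F1, 0.833 to 3.30 CPM in recorded VDS-F1 and 4.43 to 5.70 CPM in recorded VDD-F1. It fell by set (log2-fold change -3.20 ± 0.67 SE, adjusted p-value 0.024, edgeR), a call that was lost without VDD_4, VDD_5, VDD_6, VDS_1 or VDS_2, and without diet as a covariate. Cyp17a1, a steroid hydroxylase, rose by set (2.06 ± 0.34 SE, adjusted p-value 0.0063, edgeR), a call lost without diet as a covariate (adjusted p-value 0.052, edgeR), and its r with Moxd1 was 0.25. DESeq2 called Abcd2 by diet as well, of 253 genes. In the recorded mice 4 of 13 rose with VDD (Cyp2a4, Cyp2b10, Cyp17a1 and Abcd2) and 0 fell, against 3.07% and 1.26% of all genes. Of 15 tested genes of growth hormone signalling, which sets these differences between the sexes, 0 were called by diet or by set in 12 mice (2 and 3 at an unadjusted p-value under 0.05, and 0 and 0 by DESeq2). At that p-value were 1189 genes higher and 783 lower of 12453 by diet, and 995 higher and 731 lower by set. The median r of the 15 was -0.20.

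Lipogenesis was the list whose members ran most with Moxd1, at a median r of 0.66 over 17 genes, all of which had a positive r. By set, 6 of 17 rose (Acaca, Fasn, Elovl6, Pklr, Pnpla3 and Gpam) and 0 fell, against 0.61% and 0.281% of all genes, and the median log2-fold change was 1.08 against 0.01 over all genes. Fasn, the fatty acid synthase (r = 0.75), was at 2268 and 5928 CPM in VDS_1 and VDS_2, 4174, 1101 and 5265 CPM in VDD_1 to VDD_3, 949 to 1657 CPM in recorded VDS-F1 and 747 to 789 CPM in recorded VDD-F1 (set log2-fold change 1.90 ± 0.33 SE, adjusted p-value 0.0088, edgeR). Pklr, the liver pyruvate kinase (r = 0.81), was at 550 and 690 CPM in VDS_1 and VDS_2, and at 773 and 904 CPM in VDD_1 and VDD_3, above both. Acaca, the carboxylase that feeds fatty acid synthesis, rose by set by 1.35 ± 0.20 (SE, adjusted p-value 0.0025, edgeR), and Pnpla3, a lipid droplet acyltransferase and lipase, by 3.57 ± 0.59 (SE, adjusted p-value 0.0060). VDD_1 and VDD_3, which had 4.42 and 1.73 CPM of Moxd1, were above VDS_1 in Fasn and above both VDS_1 and VDS_2 in Pklr. The count of 6 was 2 without VDS_2, 3 without VDD_1, VDD_3, VDD_4, VDD_6, VDS_3, VDS_4 or VDS_5, 4 without VDD_5 and 11 without VDD_2, and Pklr and Gpam lost the call without diet as a covariate. DESeq2 called these 6 and also Acacb and Acly, of the 165 genes it called by set. By diet 0 of 17 were called in 12 mice, against 0.0161% of all genes higher and 0.0241% lower, and 0 by DESeq2. At an unadjusted p-value under 0.05 there was 1, against 1189 higher and 783 lower of 12453 genes. In the recorded mice Thrsp, Pklr and Lpin1 fell with VDD, against 1.26% of all genes.

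**Figure D5:**
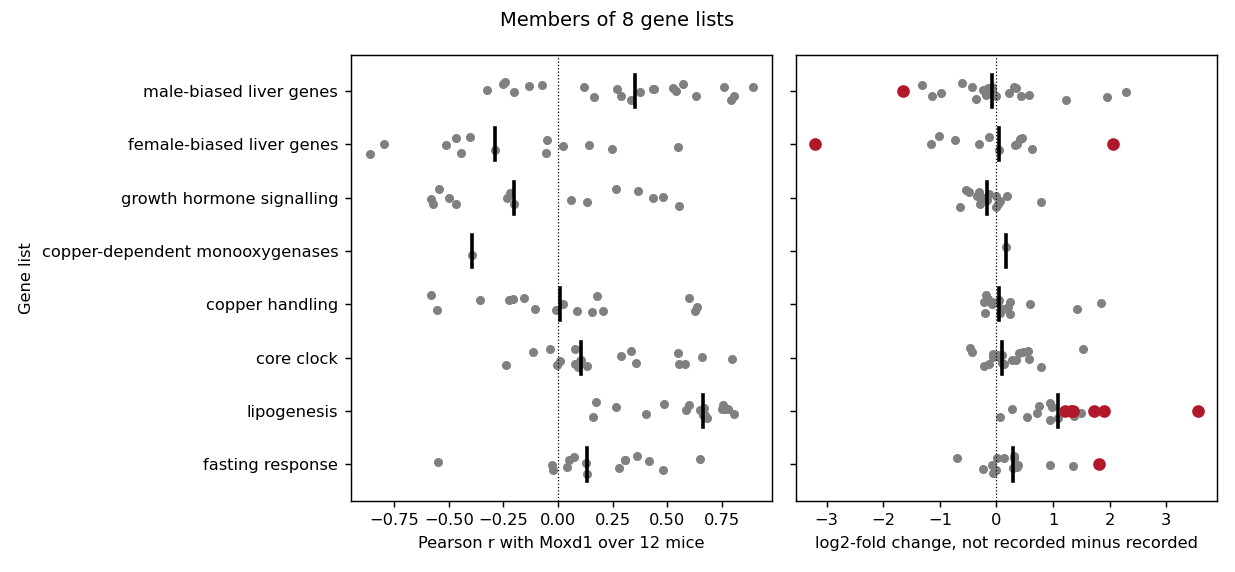
Left, Pearson r with Moxd1 over 12 mice for the tested members of 8 gene lists. Right, the log2-fold change of the same genes between unrecorded and recorded mice, with called genes in red. Each point is a gene and black bars are list medians, which reach 0.66 (r) and 1.08 (log2-fold change) in lipogenesis, where 6 of 17 genes are called higher.

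Genes of the core clock and of the fasting response had a median r of 0.11 over 19 and 0.13 over 15 tested genes. Cry2, a clock repressor, had the highest r of the clock genes (0.80), at 34.1 and 34.0 CPM in VDS_1 and VDS_2, 24.8 to 36.7 CPM in recorded VDS-F1 and 16.9 to 19.0 CPM in recorded VDD-F1. By diet and by set 0 clock genes were called in 12 mice (3 and 2 at an unadjusted p-value under 0.05, 0 and 0 by DESeq2). At that p-value were 1189 genes higher and 783 lower of 12453 by diet, and 995 higher and 731 lower by set. In the recorded mice 6 of 19 (Per2, Per3, Nr1d1, Dbp, Tef and Bhlhe41) fell with VDD, against 1.26% of all genes. In the fasting list Fgf21, a hormone of fasting liver, rose by set (1.80 ± 0.43 SE, adjusted p-value 0.046, edgeR), a call that remained without VDD_5 and was lost without any other mouse or without diet as a covariate, and its r with Moxd1 was 0.13. No fasting gene was called by diet (2 at an unadjusted p-value under 0.05, 0 by DESeq2) or in the recorded mice alone, but there 11 of the 15 were at that p-value, against 1608 higher and 1560 lower of 12369 genes. For the interaction of diet and set, the contrast in which Moxd1 was chosen, 0.0803% of all genes were called. Of the 117 genes on the 8 lists 0 were called by edgeR, and 35 had an unadjusted p-value under 0.05, against 1122 of the 12453 genes tested. In the clock list 10 of the 19 genes were under that p-value, in the fasting list 8 of 15 and in growth hormone signalling 6 of 15. The other lists had 5 of 22 (male-biased), 4 of 13 (female-biased), 2 of 17 (lipogenesis), 0 of 16 (copper handling) and 0 of 1 (monooxygenases). DESeq2 called 97 of all genes for the interaction, of which 8 are list members and 5 of those are clock genes. In Dbp, Bhlhe41, Nr1d1 and Tef the diet difference (VDD-F1 minus VDS-F1) fitted by DESeq2 was higher in the unrecorded than in the recorded mice, by 6.81, 4.52, 3.16 and 1.91 on the log2 scale, and in Nfil3 it was lower (-1.96).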

How the data were processed

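Total RNA of the left lateral liver lobe was sequenced as ribosome-depleted, strand-specific paired reads. The authors trimmed them, aligned them with STAR to mm10 and deposited STAR's gene counts (GENCODE M15), unnormalized, with 1 column that ignores strand and 1 per strand. The reverse-strand column was used, which held 92.7% to 95.8% of stranded counts. Symbols and positions came from GENCODE M21 on GRCm38 (52489 of 52636 genes matched).

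A mean count of 12 over the mice was the minimum for a test. Levels are CPM scaled by TMM. Tests used edgeR 4.0.16 in R 4.3.3 (quasi-likelihood, legacy form, Benjamini-Hochberg over all genes), and standard errors are the log2-fold change over the root of the F statistic. The p-values measure the spread between these mice. Alternatives were DESeq2 1.42.0 (the authors' tool), its size factors, other filters, the count without strand, no fold threshold, other covariates, each set alone and each mouse left out. Scripts were tested on simulated counts. Python 3.11.15, NumPy 2.4.6, pandas 2.3.3, SciPy 1.17.1 and matplotlib 3.10.9 were used for the rest.

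Genes were named by rule: Moxd1, the 15 genes with the highest and 10 with the lowest r with it, genes within 500 kb, copper-dependent monooxygenases, and from 8 gene lists the called members and up to 5 others. The gene, lists and rules were chosen with earlier results of these data known. Replicate numbers did not pair mice: deviations of mice sharing a number correlated at -0.08 to 0.10. For 1 gene of these lists the result in the recorded mice is not reported here.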

Additional observations from a re-analysis of the deposited data

How the results depend on the processing

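The direction of the Moxd1 differences is fixed by how the gene was chosen and is no sign of stability. VDD-F1 minus VDS-F1 ranged from -4.58 to -3.06 and unrecorded minus recorded from 2.65 to 4.92 (log2 CPM) when 1 mouse was left out. Other settings moved neither by more than the spread between mice. The genes named as followers depended more on the setting. Of the 15 highest, 8 were shared with Spearman's rho, 3 with linear CPM, 1 without VDS_1 and VDS_2 and 0 on residuals, and 6 to 14 when 1 mouse was left out. Of the 10 lowest, 3, 2, 0 and 0 were shared in the same settings, and 5 to 9 when 1 mouse was left out.

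The diet comparison called 5 genes, and 70 without a filter, 253 by DESeq2, 21 with the set as a covariate, 536 in the recorded and 0 in the unrecorded mice, 38 without VDS_1 and VDS_2 (chosen after the data had been seen) and 0 to 260 when 1 mouse was left out. With the replicate block it called 17, but the numbers do not pair mice. The set comparison called 111, and 202 without a filter, 165 by DESeq2, 306 without a fold threshold, 69 without diet as a covariate and 68 to 178 with 1 mouse left out. The interaction called 10, and 289 without a filter, 97 by DESeq2 and 3 to 244 with 1 mouse left out.

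Members called in any of the 3 comparisons without a filter, by DESeq2 and without a fold threshold were 8, 8 and 4 of the male-biased list (2 as reported), 2, 1 and 1 of copper handling (0 as reported). Without a filter and by DESeq2 they were 7 and 5 of the female-biased (2), 11 and 5 of the clock (0) and 9 and 2 of the fasting list (1). Growth hormone signalling had 4 without a filter and 1 without a fold threshold (0), lipogenesis 10 without a filter (6), and the clock 1 with a total count of at least 12. With 1 mouse left out the ranges were 0 to 8 (male-biased), 1 to 5 (female-biased), 0 to 1 (growth hormone), 0 to 0 (monooxygenases), 0 to 1 (copper), 0 to 3 (clock), 2 to 12 (lipogenesis) and 0 to 3 (fasting).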

Other observations

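No mouse stood alone in its diet group for Moxd1 or for any of the 25 genes named by their r, in 52 groups of 6 mice examined by the gap of the most extreme mouse over the range, against a limit of 0.625. This measure cannot flag VDS_1 and VDS_2 where both are extreme together. Moxd1 was chosen for that pattern and the followers by r with it, so no conclusion is drawn.

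With 0 or 1 count in 4 mice, the depth of these libraries sets the lowest level of Moxd1 that is told apart, and the order of VDD_2, VDD_4, VDD_5 and VDD_6 among themselves was not detectable at this depth. The highest group holds 2 mice of 1 diet and 1 set, and has no comparison within it.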
